A study of Rattus norvegicus with 3 samples.

Results

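From a 3-array study of rat granulosa cells, 2 arrays were set against each other here, the array of stimulated cells carrying the NFIL3 virus and the array of unstimulated cells carrying a GFP virus. They were chosen by their labels, and they are 2 of the 3 samples. The cells came from female Sprague-Dawley rats, immature and 24 to 25 days old, and were taken by follicle puncture 48 h after PMSG, a gonadotropin from pregnant mares that drives follicles to preovulatory size. In one group the cells were infected with Ad-GFP, an adenovirus that carries green fluorescent protein, and received no stimulus (the control array). In the other they were infected with Ad-NFIL3, an adenovirus that carries the transcription factor NFIL3, and from 24 h after infection were given 10 uM forskolin (FSK) and 20 nM phorbol 12-myristate 13-acetate (PMA) for 6 h (the NFIL3 array). Both groups had PMSG-primed cells, cultured in Opti-MEM with insulin, transferrin and selenium, and virus at 50 pfu per cell, removed after 2 h. The remaining group, Ad-GFP with FSK/PMA (the stimulated GFP array), did not enter the differences, and its signals are given beside some genes. Each array carried RNA pooled from 3 experiments, so there was 1 array per group, no replicate, and no p-value.

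The surge of luteinizing hormone (LH) acts on preovulatory granulosa cells through cAMP and protein kinase A, and also through protein kinase C and the kinases downstream of the epidermal growth factor (EGF) receptor. The cells then switch on genes for prostaglandin synthesis, for the matrix of the expanding cumulus and for proteases, shift from estradiol to progesterone production, and lose genes of the growing follicle. Forskolin activates adenylyl cyclase and PMA activates protein kinase C, and together they stand in for that surge. NFIL3 is a basic leucine zipper factor known mainly as a repressor, which binds sites that it shares with the PAR bZIP factors of the circadian output. The comparison asks which parts of the stimulated state are present in cells that also carry NFIL3. The stimulus and the NFIL3 virus differ together between the 2 arrays, so their contributions to any difference between these 2 arrays cannot be told apart.

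The gene carried by the virus, Nfil3, read 564 on the control array and 5882 on the NFIL3 array, a 10.4-fold higher signal. On the stimulated GFP array it was 1321. The label of the NFIL3 array thus went with the highest of the 3 signals. The position of the only Nfil3 probe set relative to the viral insert is not known here, and a probe set outside the insert would not check the virus.

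Of 14218 named genes 9655 were measured, that is, above a floor of 126 on at least 1 of both arrays. The floor is the median signal over all probe sets and arrays. On the NFIL3 array 625 of them (6.47%) were higher by 2-fold or more, 878 (9.09%) were lower by 2-fold or more, and 8152 lay between. Differences of 4-fold or more were seen in 147 genes in the higher direction and 149 in the lower direction. At 8-fold or more there were 42 higher and 22 lower genes. Where 1 of the arrays was below the floor the fold is given as at least that size, which applied to 108 of the higher and 136 of the lower genes. The median log2 difference of all measured genes was -0.03. Genes with exactly 2 measured probe sets, 1958 in number, gave a robust SD of 0.34 for a log2 difference. That SD covers disagreement between probe sets and leaves out the spread between cultures.

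**Figure D1:**
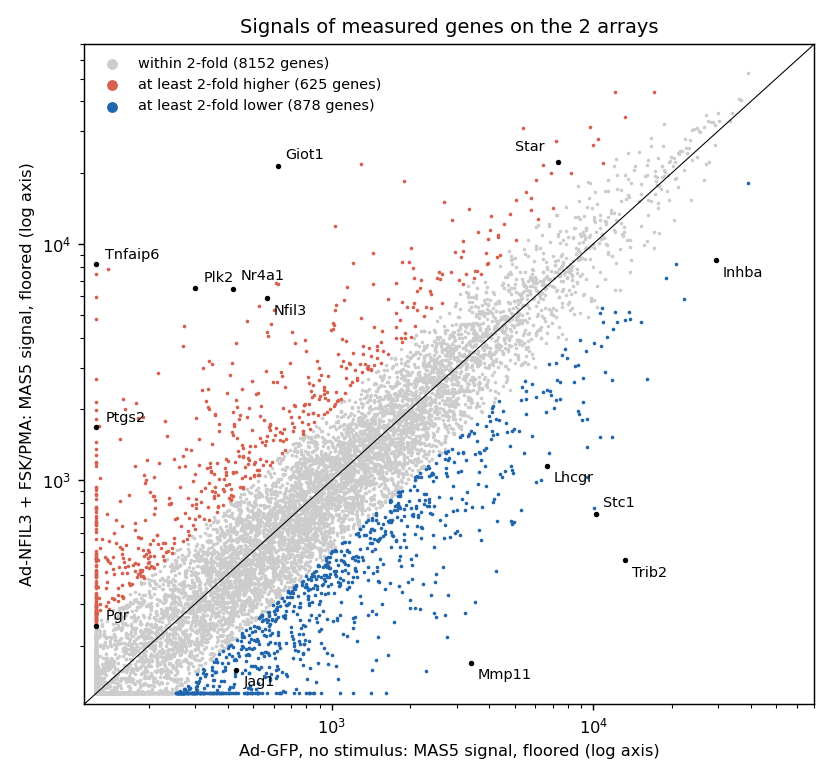
MAS5 signals of the 9655 measured genes on the control array (x axis) and the NFIL3 array (y axis), both floored at 126 and on log axes. Each point is a gene, coloured where it was at least 2-fold higher (625 genes) or lower (878 genes), with named genes in black and a line of equal signal.

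Among the genes furthest above the control were several that are known from the ovulatory follicle or from cAMP signalling. Tnfaip6, which encodes a hyaluronan-binding protein that cross-links the cumulus matrix, had signals of 62.9 on the control array and 8190 on the NFIL3 array and was at least 65.1-fold higher. Its second probe set, at 14.5 and 255, was at least 1.02 higher on the log2 scale. Plat, tissue plasminogen activator, had signals of 121 and 5967 and was at least 47.4-fold higher. These genes were near or below the floor without stimulus and far above it on the NFIL3 array. Penk, the enkephalin precursor, had signals of 53.2 and 4821, at least 38.3-fold higher. Giot1, a gonadotropin-inducible zinc finger gene, had signals of 623 and 21314, 34.2-fold higher. Plk2, a polo-like kinase that is induced by many stimuli, had a signal of 6539 on the NFIL3 array and was 21.8-fold higher.

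The rest of the 15 highest genes were Fam110c (at least 59.4-fold), Nap1l5 (55.9-fold), the adhesion molecule gene Clmp (at least 21.3-fold), the carbonic anhydrase gene Car2 (at least 17.1-fold), the aldo-keto reductase gene Akr1b8 (16.9-fold), the thioesterase gene Olah (16.5-fold), the tubulin gene Tubb6 (at least 15.8-fold), the nuclear receptor gene Nr4a1 (15.4-fold), the cAMP phosphodiesterase gene Pde4b (at least 14.5-fold) and Ass1, argininosuccinate synthase (13.8-fold).

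At the other end stood Trib2, a Tribbles pseudokinase gene, with signals of 13173 and 459, 28.7-fold lower. Mmp11, a matrix metalloproteinase gene, had signals of 3393 and 169 and was 20.0-fold lower. Stc1, the glycoprotein hormone stanniocalcin 1, had signals of 10212 and 721, 14.2-fold lower. All 3 Stc1 probe sets were lower, with log2 differences from -3.82 to -3.09, the last set by the floor. The brightest probe sets of all 3 genes remained above the floor on the NFIL3 array. The others were Myom2 (14.7-fold), the hydroxyacid oxidase gene Hao2 (14.2-fold), the ligand gene Wnt5b (at least 12.8-fold), Fam171b (12.6-fold), Sostdc1, which encodes a BMP and Wnt antagonist (11.8-fold), Hsd17b1, an estradiol-forming enzyme (11.6-fold), the AMP-activated kinase subunit gene Prkaa2 (at least 11.2-fold), Flvcr2 (10.3-fold), Trim2 (10.0-fold), the repressor gene Nr0b1 (at least 9.59-fold), Wfdc10a (9.46-fold) and Crym, which encodes a thyroid hormone binding protein (9.18-fold).

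**Figure D2:**
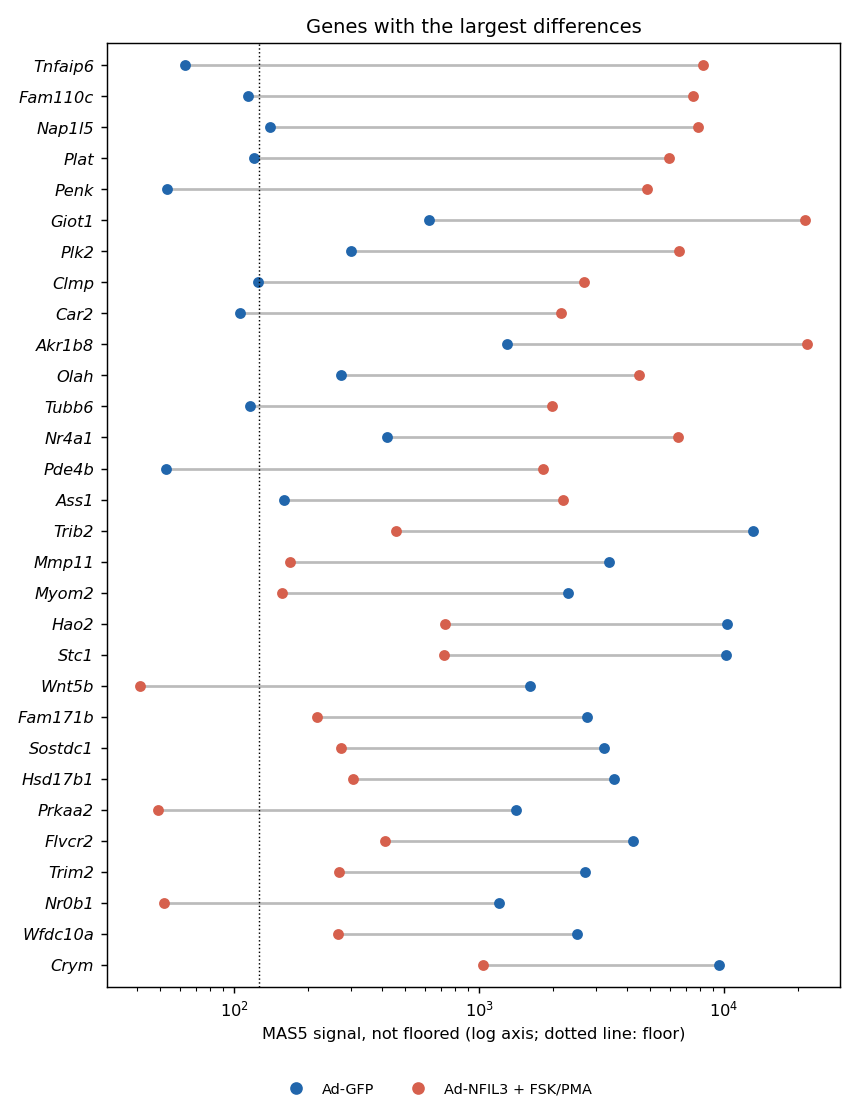
MAS5 signals (log axis, not floored) of the 15 genes highest and the 15 lowest on the NFIL3 array (red) against the control array (blue), 1 array per group, with the floor of 126 as a dotted line. The higher genes run from Tnfaip6 (at least 65.1-fold) to Ass1 (13.8-fold), the lower genes from Trib2 (28.7-fold) to Crym (9.18-fold).

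Genes known to be induced by the LH surge were higher for the most part. At the 2-fold mark 17 of 25 measured genes were higher, 2 were lower and 6 lay within it, with a median log2 difference of 1.60 against -0.03 over all measured genes. The share that was higher, 68.0%, stood against 6.47% of all measured genes. This list and the others below were chosen with earlier results of these data known. Their shares are descriptions and test nothing. Besides Tnfaip6 and Plat, the highest were Ptgs2, the inducible cyclooxygenase, and Runx1, a transcription factor gene of the ovulatory follicle. Ptgs2 had signals of 102 and 1678 and was at least 13.3-fold higher, and Runx1 had signals of 587 and 4598 and was 7.83-fold higher. Timp1, a metalloproteinase inhibitor, was 5.57-fold higher, from 2688 to 14983. The estrogen sulfotransferase gene Sult1e1 read 82.4 and 694, at least 5.51-fold higher.

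Of the EGF-like ligands, which carry the LH signal from granulosa to cumulus cells, Areg and Ereg were above the control on the NFIL3 array, at lower folds. Areg, amphiregulin, had signals of 203 and 889, 4.38-fold higher. Ereg, epiregulin, had signals of 73.1 and 326, at least 2.59-fold higher. Btc, betacellulin, was below the floor on both arrays, at 12.0 and 46.3. Hbegf, another ligand of the EGF receptor, was at least 3.76-fold lower, from 473 to 72.6. The receptor gene Egfr had signals of 2229 and 2011 and the sheddase gene Adam17 had signals of 4228 and 3745, both within 2-fold, and the feedback inhibitor gene Errfi1 was 4.70-fold higher. Tgfa, a further ligand gene, had signals of 1606 and 2004, a log2 difference of 0.32. Ligands on this list thus lay above, near and below the control, while the measured receptor and sheddase genes stayed near it. In all, 3 of 9 measured genes of this list were higher (33.3%), 1 was lower (11.1%) and the median was 0.15. Over all measured genes these shares were 6.47% and 9.09%.

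Pgr, the progesterone receptor that many ovulatory genes depend on, had signals of 44.4 and 243. The control signal was below the floor, so the log2 difference of at least 0.95 is set by the floor, and it was 2.45 with the lowest floor tried. Among 14 measured genes described as Pgr-dependent, 6 were at least 2-fold higher and 1, Hbegf, was lower, with a median of 0.56. Higher genes made up 42.9% of this list, against 6.47% of all measured genes. Cxcr4, a chemokine receptor gene, was at least 6.98-fold higher, the vesicle fusion gene Snap25 at least 5.16-fold, Adcyap1, which encodes the neuropeptide PACAP, at least 4.93-fold, Edn2, endothelin 2, at least 3.31-fold, Vegfa, the vascular growth factor, 3.27-fold and Rgs2 3.21-fold. Adamts1, the protease that cleaves versican during ovulation, had signals of 1587 and 932, a log2 difference of -0.77. The genes of this list were therefore not uniform, with Adamts1 and Hbegf on the lower side of the control.

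**Figure D3:**
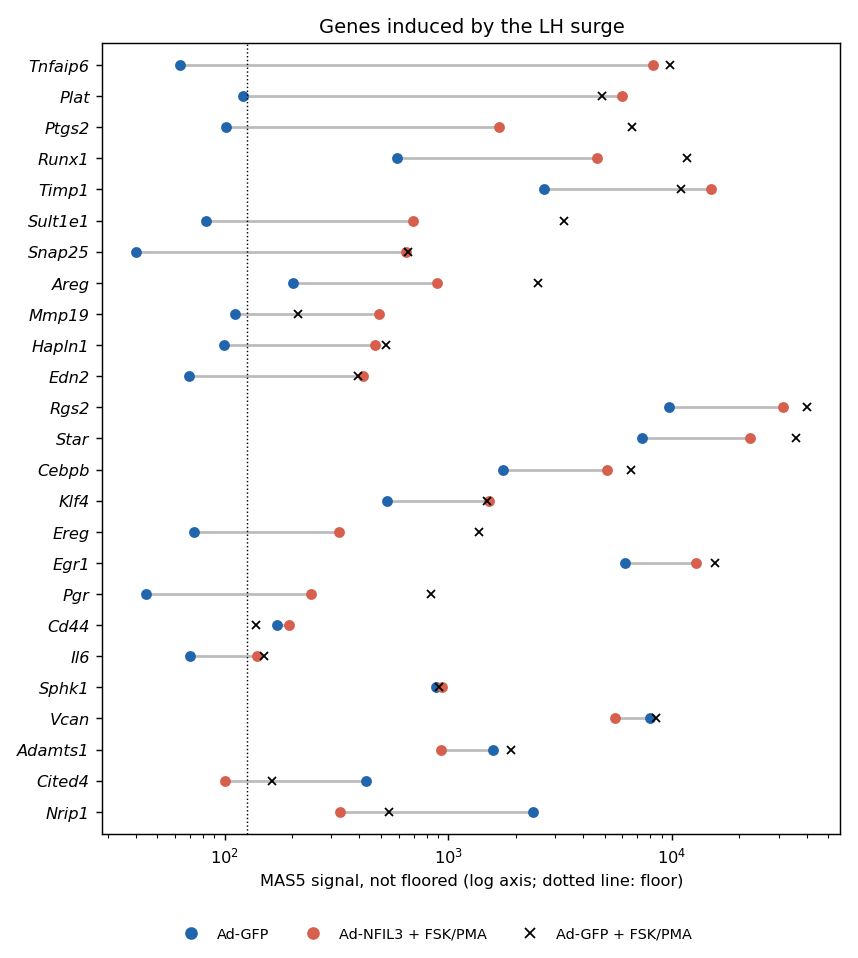
MAS5 signals (log axis, not floored) of the 25 measured genes known to be induced by the LH surge, on the control array (blue), the NFIL3 array (red) and the stimulated GFP array (crosses), ordered by the difference between the first and the second of these, with 1 array per group and the floor of 126 as a dotted line. Of these genes 17 were at least 2-fold above the control on the NFIL3 array, and Nrip1 and Cited4 were at least 2-fold below it.

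Against the stimulated GFP array, the LH-surge genes ranged from lower to higher signals on the NFIL3 array. Sult1e1 was at 694 with NFIL3 and 3298 without it, and Mmp19 at the other end was at 492 and 213. Snap25 was at 649 with NFIL3 and 658 without it, and Edn2 was at 417 and 395. Tnfaip6 was at 8190 and 9833, and Plat was at 5967 and 4863. Ptgs2 was at 1678 with NFIL3 and 6644 without it, Pgr was at 243 and 836, and Areg was at 889 and 2505. The control array is shared by both comparisons, so their folds are not independent: Ptgs2 was at least 13.3-fold above the control with NFIL3 and at least 52.8-fold above it without, and Ereg was at least 2.59-fold and at least 10.8-fold above. Adamts1 lay on different sides of the control, at 932 with NFIL3, 1587 in the control and 1910 without NFIL3, and so did Vcan, at 5574, 7994 and 8467, and Cd44, at 194, 172 and 138. All of these lay within 2-fold of the control.

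Prostaglandin genes were split. Ptgs2 and Pla2g4a, the phospholipase that releases arachidonic acid, were both higher, the latter 6.06-fold, from 304 to 1842. Ptges, a prostaglandin E synthase, was 5.56-fold lower, from 730.5 to 131, and a second probe set had a log2 difference of -0.94. The efflux transporter gene Abcc4 was 3.36-fold lower and Hpgd, the dehydrogenase that degrades prostaglandins, was 2.91-fold lower, from 969 to 333. Cbr1, a carbonyl reductase that can act on prostaglandin E2, was 2.62-fold higher. Of 11 measured genes 3 were higher and 3 were lower (27.3% each), with a median of 0.14. Of all measured genes 6.47% were higher and 9.09% lower. Substrate release and cyclooxygenase genes were thus above control while a synthase, a transporter and the degrading enzyme were below it.

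Matrix genes of the cumulus and the proteases around the follicle also went both ways. Of 7 measured cumulus matrix genes 3 were higher (42.9%, against 6.47% of all measured genes). These were Tnfaip6, the aggrecanase gene Adamts4 (11.9-fold) and the link protein gene Hapln1 (at least 3.74-fold). Another Hapln1 probe set near the floor differed by at least 0.06 on the log2 scale. Vcan, versican, had signals of 7994 and 5574, and Has2, the hyaluronan synthase, was below the floor on both arrays, at 99.3 and 74.3. Among 27 measured proteases and inhibitors 7 were higher (25.9%) and 5 were lower (18.5%), with a median of 0.12. The lower share over all measured genes was 9.09%. Plaur, the urokinase receptor, was 13.2-fold higher, from 129 to 1696, whereas Plau, urokinase itself, was 4.81-fold lower, from 1215 to 253. Mmp19 was at least 3.91-fold higher and Adamts5 was 6.33-fold lower. The plasminogen activators therefore stood on opposite sides, Plat above the control and Plau below it. The inhibitors did too, since Timp1 was 5.57-fold higher and Serpine2 and Timp3 were each 3.85-fold lower.

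Immediate early genes and targets of the cAMP-responsive factor CREB were the other group that stood well above control. At the 2-fold mark 22 of 33 measured genes were higher and 0 were lower, with a median of 1.30. The higher genes made up 66.7% of this list, against 6.47% of all measured genes. Nr4a1, an orphan nuclear receptor gene, had signals of 421 and 6462, 15.4-fold higher. Ier5 was 9.30-fold higher, from 323 to 3001, and Crem, the gene of the cAMP-responsive modulator and its repressor ICER, was 5.28-fold higher, from 496 to 2619. The cAMP phosphodiesterase gene Pde4d was at least 5.87-fold higher, though its other probe sets differed by at least 1.15 and at least 0.35 on the log2 scale. Nr4a3 was at least 5.60-fold higher, and its dimmer probe sets by at least 0.84 and 0.16 on the log2 scale. Csrnp1 was at least 6.04-fold, the zinc finger gene Egr2 5.16-fold and the clock gene Per1 3.75-fold higher. Egr1 had signals of 6161 and 12762, 2.07-fold higher, and Nr4a2 had signals of 253 and 429, a log2 difference of 0.76. Members within 2-fold included Klf2, at 475 and 494, while another Klf2 probe set was at least 1.69 higher on the log2 scale.

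Genes of negative feedback were also above control in part. Of 16 measured regulators of G protein signalling, MAP kinase phosphatases and Sprouty-type genes, 7 were higher and 1 was lower, with a median of 0.70. Higher were 43.8% of them, against 6.47% of all measured genes. The phosphatase genes Dusp6 and Dusp5 were 9.83-fold and 9.67-fold higher, with signals of 1883 and 18501 for Dusp6 and of 191 and 1845 for Dusp5. Dusp1 was 3.72-fold and Dusp14 3.62-fold higher. Rgs2 had signals of 9715 and 31217, and Rgs1 had signals of 9.51 and 357, at least 2.84-fold higher, whereas Rgs3 was at least 2.37-fold lower. Within the cAMP and protein kinase C machinery itself most genes were within 2-fold of the control. Of 30 measured, 4 were higher, the phosphodiesterase genes Pde4b, Pde4d and Pde10a (3.85-fold) and the kinase gene Prkca (2.20-fold). That was 13.3%, against 6.47% of all measured genes. The anchoring protein gene Akap7 was 3.24-fold lower, and the list's median was -0.02.

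The cAMP response element is the site that CREB and CREM bind, and its full form is the palindrome TGACGTCA. It was searched on both strands in RefSeq promoters of assembly GRCr8, from 250 bases before to 50 after each gene's start, and 8158 of the 9655 measured genes had such a promoter. Of these, 271 (3.32%) held the element, against 525 of all 27457 promoters (1.91%). It was found in 19 of 508 promoters of genes at least 2-fold higher (3.74%), in 244 of 6932 within 2-fold (3.52%) and in 8 of 718 at least 2-fold lower (1.11%). A match describes these letters and is no proof of a site in use. The named genes past 2-fold that held it in the 250 bases before the start were all higher. Elements reaching past the start were not listed by gene. Windows of 80 bases with each element are shown 5′ to 3′ on the gene's strand, with the element in capitals, to set the letters beside the differences.
Areg: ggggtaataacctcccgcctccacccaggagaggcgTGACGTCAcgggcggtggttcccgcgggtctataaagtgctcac
Dusp1: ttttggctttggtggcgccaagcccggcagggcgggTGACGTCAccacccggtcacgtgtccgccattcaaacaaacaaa
Giot1: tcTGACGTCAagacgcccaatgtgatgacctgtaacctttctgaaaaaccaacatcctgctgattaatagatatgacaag
Plk2: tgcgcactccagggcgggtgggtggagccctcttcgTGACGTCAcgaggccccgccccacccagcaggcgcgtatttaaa
Scg2: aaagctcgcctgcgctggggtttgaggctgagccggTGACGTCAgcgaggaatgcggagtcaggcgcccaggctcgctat

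These windows lie upstream of the gene start, for Areg at chr14:17265689-17265768 on the minus strand, for Dusp1 at chr10:17184693-17184772 on the plus strand, for Giot1 at chr7:10887136-10887215 on the minus strand, for Plk2 at chr2:43702434-43702513 on the plus strand and for Scg2 at chr9:88256946-88257025 on the minus strand. The first base of the element is 91, 124, 248, 66 and 123 bases before the start in that order. The differences of these genes were 4.38-fold, 3.72-fold, 34.2-fold, 21.8-fold and 2.81-fold. Named genes with the element upstream of the start that lay within 2-fold were Arnt, Hsp90ab1, Il6 and Slc18a2. Their log2 differences were at least 0.75, -0.13, at least 0.15 and -0.01. The element was thus found both in genes far above control and in genes near it.

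The sites bound by NFIL3 and the PAR bZIP factors, TTACGTAA and TTATGTAA, were searched in the same way, on both strands. They were present in 276 of all 27457 promoters (1.01%) and in 42 of 8158 measured genes (0.515%). Of genes at least 2-fold lower 3 of 718 held a site (0.418%), and of genes at least 2-fold higher 3 of 508 (0.591%). The lower genes were Enpep, glutamyl aminopeptidase (3.29-fold), Ecm2 (at least 2.91-fold) and Ogt (2.15-fold), and the higher genes were Coq10b (3.15-fold), Peli2 (3.03-fold) and Cd14 (2.58-fold). All but Cd14 were named after their values were seen. The Cd14 site read TTACATAA on the gene's strand, which is TTATGTAA on the other. In this window, the share of genes with such a site was low in each direction, and nothing follows from it about sites elsewhere.

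Steroid hormone genes and their regulators lay on both sides of the control. Of 25 measured, 10 were higher (40%) and 7 were lower (28%), with a median of 0.42. Over all measured genes it was 6.47% and 9.09%. Star, which carries cholesterol into mitochondria, had signals of 7352 and 22231, 3.02-fold higher. Cyp11a1, the side-chain cleavage enzyme, was 2.99-fold higher, from 5525 to 16508, and its electron carrier gene Fdx1 was 3.63-fold higher, from 12126 to 44024. The lipoprotein receptor gene Scarb1 was 3.02-fold higher. These 4 genes were above the control, whereas Hsd3b1, which forms progesterone, had signals of 33269 and 33148.

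Estrogen genes pointed in different directions. Cyp19a1, aromatase, was 5.47-fold higher, with signals of 192 and 1051, and on its other probe sets the log2 difference was 2.53 and no less than 2.98. Hsd17b1 was 11.6-fold lower, from 3540 to 306, and Sult1e1, which inactivates estrogens, was higher as given above. Among the regulators, Nr0b1 was at least 9.59-fold lower, from 1207 to 51.9, and the nuclear receptor genes Nr5a2 and Nr5a1 were 2.88-fold and 2.40-fold lower. Gata6 was 2.83-fold lower on its brighter probe set and 0.28 higher on the log2 scale on another, and Soat1, which esterifies cholesterol, was 2.23-fold lower. Hsd11b2, which inactivates glucocorticoids, was at least 3.18-fold lower and Hsd11b1, which reactivates them, was 2.30-fold higher.

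Genes of cholesterol supply were above the control by their median. At the 2-fold mark 0 of 25 measured genes lay below the control, and the median was 0.63. Above the control were 5 (20%, against 6.47% of all measured genes). These were Acat2 (3.49-fold), Scarb1, Nsdhl (2.62-fold), Idi1 (2.57-fold) and Sqle (2.48-fold), the last a rate-limiting enzyme of the later pathway. Cyp51 and Msmo1, enzymes of the same pathway, had log2 differences of 1.00 and 0.94, just short of the 2-fold mark for Cyp51 at 1.99-fold. The regulator gene Srebf2 had signals of 2023 and 2287. Mvk, mevalonate kinase, had signals of 789 and 744 and a log2 difference of 0.63 on a second probe set, and Pmvk and Fdft1 had log2 differences of -0.70 and -0.46.

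Granulosa genes typical of preovulatory follicles stood lowest of the lists with 10 or more measured members. Of 27 measured, 14 were at least 2-fold lower and 4 were higher, with a median of -1.11. The share that was lower, 51.9%, stood against 9.09% of all measured genes. This list, too, was chosen with earlier results of these data known. Lhcgr, the LH receptor, had signals of 6631 and 1150, 5.76-fold lower. Foxl2, a transcription factor that holds granulosa identity, was 4.19-fold lower, from 4616 to 1101. Fst, follistatin, was 4.28-fold lower, from 9160 to 2141. The inhibin and activin subunit genes were unequal: Inhbb was 6.32-fold lower, from 4272 to 676, Inhba was 3.45-fold lower, from 29369 to 8520, and Inha had signals of 26489 and 18604, a log2 difference of -0.51.

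Others of this list were lower by comparable amounts. Prlr, the prolactin receptor, was 13.2-fold lower, from 10052 to 762, and a second probe set had a log2 difference of -2.89, while another, near the floor, was at least 0.27 higher. Bmp2 was 5.22-fold lower, Nppc, the precursor of a peptide that keeps oocyte meiosis arrested, was lower by no less than 4.17-fold, and the cyclin-dependent kinase inhibitor gene Cdkn1b was 3.25-fold lower. Gja1, a gap junction connexin, was 2.16-fold lower, from 39139 to 18090, and a second probe set had a log2 difference of -2.55. Amhr2 had a log2 difference of -0.96, and Amh had signals of 200 and 167. The 4 higher genes were Cyp19a1, Wnt4 (4.09-fold), the connexin gene Gjc1 (2.97-fold) and the kit ligand gene Kitlg (2.09-fold). In bulk RNA, fewer cells of a type and less RNA per cell cannot be told apart.

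**Figure D4:**
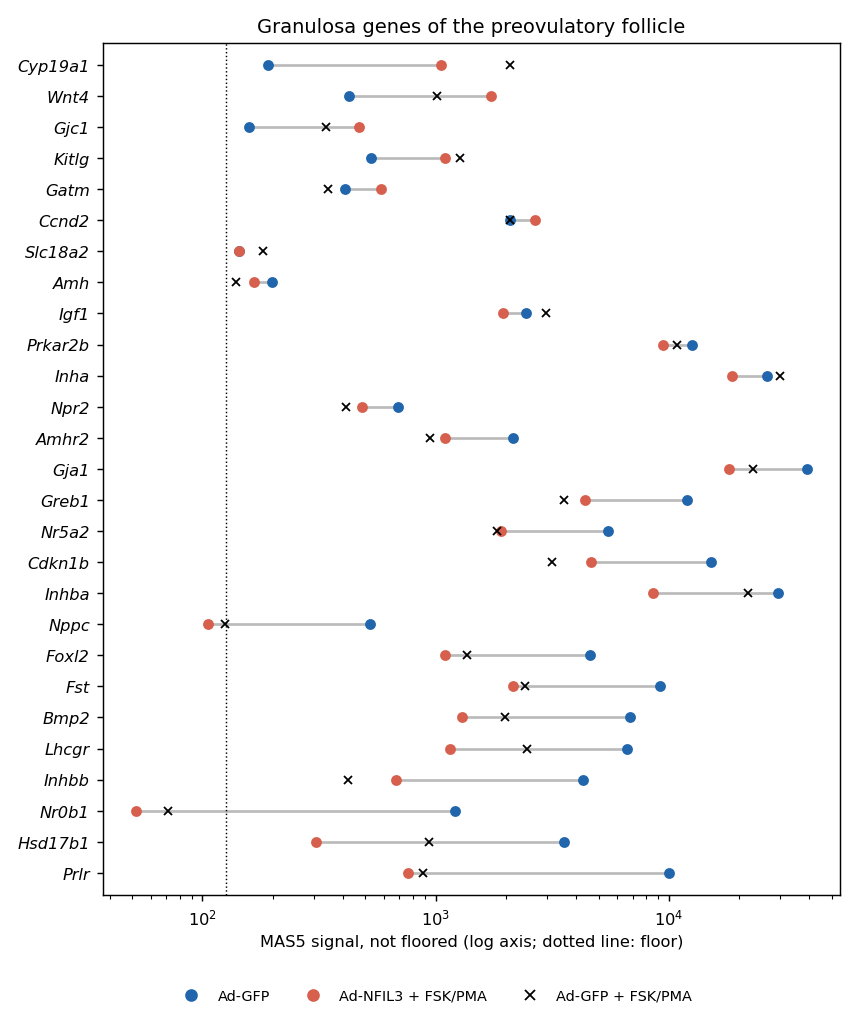
MAS5 signals (log axis, not floored) of the 27 measured granulosa genes of the preovulatory follicle on the control array (blue), the NFIL3 array (red) and the stimulated GFP array (crosses), ordered by the difference between the first and the second of these, with 1 array per group and the floor of 126 as a dotted line. On the NFIL3 array 14 were at least 2-fold below the control, and Cyp19a1, Wnt4, Gjc1 and Kitlg were at least 2-fold above it.

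Beside the stimulated GFP array, some of these follicle genes had close signals with and without NFIL3, and others differed. Foxl2 was at 1101 with NFIL3 and 1361 without, Fst was at 2141 and 2421, and Prlr was at 762 and 886. Inhba was at 8520 with NFIL3 and 21912 without, against 29369 in the control. Lhcgr was at 1150 and 2473, and Hsd17b1 was at 306 and 941. Inhbb ran the other way, at 676 with NFIL3 and 422 without.

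Signalling groups of the growing follicle held genes on both sides of the control. In the PI3K, AKT and FOXO list 4 of 26 measured genes were higher and 4 were lower, with a median of -0.11. These were 15.4% each, against 6.47% and 9.09% of all measured genes. Besides Trib2, the lower genes were Pik3ip1, an inhibitor of phosphoinositide 3-kinase (8.96-fold), Foxo1 (7.73-fold, from 11758 to 1520) and the kinase gene Sgk1 (2.78-fold). The higher genes were Ddit4 (2.83-fold), the kinase subunit gene Pik3r1 (2.68-fold), Klf9 (2.35-fold) and the insulin receptor gene Insr (2.09-fold, with a second probe set at no less than 0.31 on the log2 scale). Of 26 measured BMP, SMAD and Id genes 4 were lower and 1 was higher, with a median of -0.32. They were Bmp2, Fst, the decoy receptor gene Bambi (3.84-fold lower) and Bmpr2 (3.39-fold lower), with Tgfb1 6.50-fold higher. The share of the BMP list that was lower was 15.4%, against 9.09% of all measured genes. In the IGF list Igfbp5 was 2.83-fold lower and Stc1, which that list also holds, was lower as above, and Insr and Igfbp4 (2.00-fold) were higher, of 11 measured. Higher and lower genes each made up 18.2% of the IGF list, against 6.47% and 9.09% of all measured genes, and its median was -0.34.

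Notch genes lay on both sides of the control. Of 14 measured, 4 were lower (28.6%) and 2 were higher (14.3%), with a median of -0.12. Of all measured genes 9.09% were lower and 6.47% higher. The ligand gene Jag1 had signals of 431 and 158, 2.73-fold lower. The target genes Hes1 and Hey1 were 5.05-fold and at least 2.56-fold lower, while Hey2, another target, was 5.89-fold higher, from 397 to 2341, and the receptor gene Notch1 was at least 3.67-fold higher. Psen2, of the secretase that cleaves Notch, was 4.76-fold lower. Among 20 measured Wnt genes 3 were higher (15%) and Wnt5b was lower (5%). The higher Wnt genes were Wnt4, the receptor gene Fzd8 (from 424 to 1694) and the coreceptor gene Lrp5 (2.47-fold). Junction and polarity genes had a median of -0.27, with 3 of 18 lower (16.7%) and 2 higher (11.1%). Cgnl1, a tight junction protein gene, was 7.45-fold lower, from 4980 to 668, and Jup, plakoglobin, was 4.85-fold lower.

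**Figure D5:**
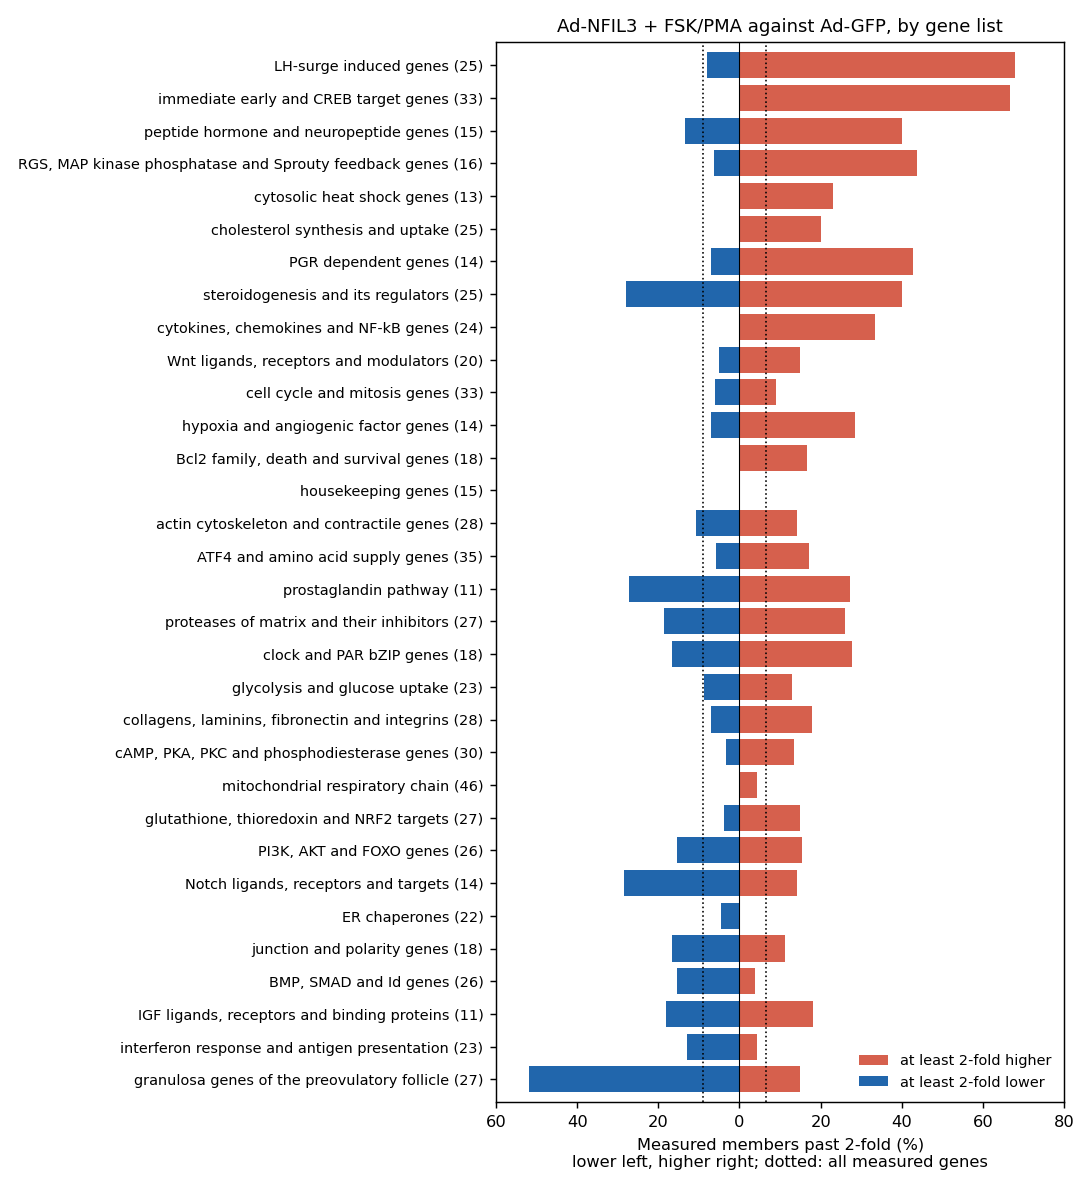
Share of measured members (percent, x axis) of each list with 10 or more of them that was at least 2-fold higher (red, to the right) or lower (blue, to the left) on the NFIL3 array, ordered by median difference, with the number measured in brackets. Dotted lines mark all measured genes, 6.47% higher and 9.09% lower, and LH-surge induced genes (68.0% higher) and preovulatory follicle genes (51.9% lower) lie at the ends. Lists were chosen with earlier results of these data known.

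Matrix and cytoskeletal genes were close to control as groups but held large single differences. Of 28 measured collagen, laminin, fibronectin and integrin genes 5 were higher (17.9%) and 2 were lower (7.14%), with a median of 0.02. In the actin list below 14.3% were higher and 10.7% lower. Over all measured genes these shares were 6.47% and 9.09%. Fn1, fibronectin, had signals of 182 and 1833, 10.0-fold higher. Spp1, osteopontin, was 7.45-fold higher, Col18a1 5.92-fold, the integrin gene Itga1 5.06-fold and Lamb1 2.04-fold. Lama4 was 5.09-fold lower and Vim, vimentin, was 2.52-fold lower, from 20646 to 8206. Of 28 measured actin and contractile genes 4 were higher, Cnn3 (3.20-fold), Cald1, caldesmon (3.09-fold), Tpm4 (2.42-fold) and Ezr (2.15-fold), and 3 were lower, Ccn2 (4.45-fold), Myh10 (3.03-fold) and Myl9 (2.62-fold), with a median of 0.17.

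Some genes with unlike signals on the stimulated GFP array and the NFIL3 array are given here on all 3 arrays. How common such differences were was not counted. Fn1 was at 182 in the control, 353 on the stimulated GFP array and 1833 on the NFIL3 array. Cald1 was at 654, 614 and 2023 in that order. Dcn, decorin, was at 201, 196 and 481, and Igfbp4 was at 340, 343 and 681. Jag1 was at 431, 883 and 158, and the serine synthesis gene Psat1 was at 528, 1017 and 204, so both were above the control on 1 array and below it on the other. Hpgd was at 969, 1030 and 333. Other genes of the matrix and actin lists had closer signals on the last 2 arrays, such as Cnn3, at 2189, 7693 and 7011, and Itga1, at 194, 934 and 979.

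Genes of amino acid supply held some large differences. Asns, asparagine synthetase, was 13.7-fold higher, from 271 to 3701, Ass1 was 13.8-fold higher, and the folate enzyme gene Mthfd2 was 6.59-fold higher. The amino acid transporter genes Slc7a5 and Slc1a5 were 4.06-fold and at least 2.45-fold higher, and Odc1, the first enzyme of polyamine synthesis, was 2.52-fold higher. Psat1 was 2.59-fold lower and the translation repressor gene Eif4ebp1 was 2.08-fold lower. With 6 of 35 higher, 2 lower and a median of 0.14, the list was near control by its median. Higher genes were 17.1% of it, against 6.47% of all measured genes. Among 23 measured glycolysis and glucose uptake genes 3 were higher (13.0%) and 2 were lower (8.70%), with a median of 0.07. Over all measured genes these shares were 6.47% and 9.09%. Slc2a1, the glucose transporter, was 4.42-fold higher, Hk2 at least 2.54-fold and Pfkfb3 2.19-fold, while Pfkm was 3.39-fold and Pdk2 2.74-fold lower.

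Of 13 measured cytosolic heat shock genes 3 were higher, Hspa1a (3.17-fold), Hspa4 (2.85-fold) and Hsph1 (2.69-fold), and 0 were lower, with a median of 0.67. Higher were 23.1%, against 6.47% of all measured genes. On the stimulated GFP array Hspa1a was 1.56-fold, Hspa4 1.33-fold and Hsph1 3.08-fold above the control. Of 22 measured chaperones of the endoplasmic reticulum 0 were higher and Hyou1 was 2.20-fold lower, with a median of -0.22. Among 27 measured glutathione, thioredoxin and NRF2 target genes 4 were higher, Osgin1 (5.06-fold), Gss (2.87-fold), Srxn1 (2.74-fold) and Sod2 (2.72-fold), and Gstm1 was 2.87-fold lower, with a median of -0.06. In this NRF2 list 14.8% were higher and 3.70% lower, against 6.47% and 9.09% of all measured genes. Respiratory chain genes had 2 of 46 higher (4.35%), Atp5f1d (2.13-fold) and Ndufa5 (2.04-fold), and a median of -0.05.

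Most cytokine and interferon genes lay within 2-fold of the control. Of 24 measured cytokine, chemokine and NF-kB genes 8 were higher and 0 were lower, with a median of 0.41. Ccl2, a monocyte chemokine, had signals of 85.9 and 925, at least 7.35-fold higher, and Nfkbiz was at least 6.15-fold, Il18 4.60-fold, Nfkbib 4.36-fold, Ccl7 at least 3.12-fold, Cxcl1 at least 2.77-fold, Nfkb1 2.53-fold and Il1r1 2.51-fold higher. On the stimulated GFP array Cxcl1 was below the floor, at 86.5, and Ccl7 was at least 1.19-fold above the control. There Ccl2 was at least 2.91-fold, Nfkbiz at least 9.55-fold, Il18 3.60-fold, Nfkbib 4.05-fold, Nfkb1 3.22-fold and Il1r1 2.14-fold above it. Of 23 measured interferon response and antigen presentation genes 3 were lower, Oas1a (at least 6.59-fold), Tap1 (2.97-fold) and Psmb9 (2.41-fold), and Ifitm3 was 2.25-fold higher, with a median of -0.51. The share of this list that was lower, 13.0%, was near the 9.09% of all measured genes, and for the cytokine list 33.3% were higher against 6.47%. The cells of both arrays were infected with adenovirus, but the viruses carried different genes. Whether the extent of infection or the response to it differed between the arrays was not tested.

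Ndrg1 was 9.67-fold higher, the semaphorin and VEGF coreceptor gene Nrp2 3.60-fold, Vegfa 3.27-fold and Angptl4 2.12-fold, and Angpt2 was at least 4.16-fold lower, of 14 measured hypoxia and angiogenic genes. In that list 28.6% were higher and 7.14% lower, against 6.47% and 9.09% of all measured genes, with a median of 0.30. The survival gene Mcl1 was 2.86-fold higher and Tnfrsf12a, a receptor of the tumour necrosis factor family, was 6.89-fold higher, from 1206 to 8311. Bcl2l11 was 2.74-fold higher on its brightest probe set and differed by -0.14 on another. In the cell cycle list 3 of 33 were higher, Plk2, the inhibitor gene Cdkn1a (2.96-fold) and the mitotic kinase gene Aurka (2.54-fold), and 2 were lower, Cdkn1b and Aurkb (2.19-fold). These shares, 9.09% higher and 6.06% lower, were near those of all measured genes, 6.47% and 9.09%. Mki67, a marker of dividing cells, had signals of 259 and 252.

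Peptide hormone genes were mostly near or below the floor, and 15 of 37 on the array were measured. Of these, 6 were higher (40%, against 6.47% of all measured genes), with a median of 0.80. After Penk came Nmu, neuromedin U, which read 6.22 and 1285 and was at least 10.2-fold higher, and then Adcyap1, Edn2, the granin gene Scg2 and Pdyn, prodynorphin (2.43-fold, with a second probe set at no less than 0.08 on the log2 scale). The lower genes were Nppc and Inhba.

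Clock genes and the PAR bZIP genes, which share binding sites with NFIL3, were split. Of 18 measured, 5 were higher (27.8%) and 3 were lower (16.7%), with a median of 0.07. The 5 higher genes include Nfil3, the gene carried by the virus. Of all measured genes 6.47% were higher and 9.09% lower. Besides Nfil3 itself, Per1 was 3.75-fold higher, Npas2 at least 2.98-fold, Bmal1, the positive arm of the clock, 2.71-fold and Bhlhe40 2.03-fold. Dbp, a PAR bZIP gene, had signals of 614 and 159, 3.87-fold lower. Nr1d2 and Nr1d1, repressors of Bmal1 transcription, were 3.02-fold and at least 2.81-fold lower, the first with other probe sets at -1.27 and -0.45 on the log2 scale. These repressors were below control where Bmal1 was above it, and a link between them was not tested. On the stimulated GFP array, without the NFIL3 virus, Dbp was at 79.0, Nr1d2 at 963, Nr1d1 at 34.3 and Bmal1 at 773. Cry1 had signals of 1251 and 1352.

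Markers checked the labelled cell type. Of 9 granulosa markers on the array 8 were above the floor on each of the 2 arrays, with a summed signal of 78835 on the control and 33842 on the NFIL3 array. On the stimulated GFP array the sum was 61262. Inhba and Inha had the largest signals in the sum, 29369 and 26489 on the control and 8520 and 18604 on the NFIL3 array. Esr2 was below the floor on both the control and the NFIL3 array, at 33.7 and 5.90. Among markers of other cells, 6 of 13 for theca and stroma were measured, with summed signals of 1397 and 1703, and Dcn was 2.39-fold higher. Of 13 leukocyte markers 7 were measured, with sums of 2673 and 3829, and Cd14 was 2.58-fold higher, from 606 to 1562. For the other cell types 2 of 9 endothelial, 1 of 6 oocyte, 1 of 7 surface epithelium and 2 of 4 red cell markers were measured. The oocyte marker Zp2 was 3.31-fold lower, from 891 to 269. Hbb, beta globin, had signals of 19442 and 15376. The part of these cells in the differences was not tested.

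The median signal was 127 on the control and 136 on the NFIL3 array, and the floor was passed by 50.1% and 51.8% of probe sets. The hybridisation spikes were brighter on the NFIL3 array, by a median of 1.40 times (1.35 to 1.51) over 9 probe sets of one design and by 1.36 to 1.55 times over 9 of another, and their part in the differences was not tested. The ratio of the 3′ to the 5′ Gapdh control was 1.28 and 1.14, and that of hexokinase was 3.21 and 2.98. Of 15 measured housekeeping genes 0 were past 2-fold, with a median of 0.19, and Hprt1 had the largest difference of them, 0.90. Genes past 2-fold with 2 or more measured probe sets had the same direction in all of them in 181 of 184 higher and 237 of 259 lower genes.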

How the data were processed

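The files hold MAS5 signal intensity, 1 linear value per probe set and array, as deposited by the authors. The submitters' processing notes name MAS5 without a version. All 3 deposited columns, of 31099 probe sets, had a 2% trimmed mean near 500.2, which shows earlier scaling. Low MAS5 values are noisy because mismatch probes are subtracted. Per the labels, RNA of 3 experiments was pooled.

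Trimmed means were equalised, values under the floor of 126 were raised to it, and log2 differences were formed. Precision is limited by having 1 array per group, and sequencing depth does not apply. Symbols came from the platform annotation (20832 probe sets with 1 symbol, 436 with several, 9831 unnamed), of which 20764 were updated by Entrez ID against RefSeq GRCr8. For each gene the probe set brightest on average over the 2 arrays was used, and 4526 of 14218 genes had more than 1. Of 1062 entries in 40 gene lists 974 were found, 4 of them by a newer name, and the rest are not analysed here. Members and lists were chosen with earlier results of these data known.

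Named genes are Nfil3, the 15 highest and 15 lowest with a brighter signal of 503 or more, one direction in all measured probe sets and no placeholder symbol, a set of ovulatory and granulosa genes, and from each list all measured members if there were at most 8, otherwise the 8 with the largest and 2 with the smallest difference. Amhr2, Cited4, Fdft1, Gata6, Hsd11b1, Kitlg, Nr5a1, Nr5a2, Pmvk, Serpine2, Soat1 and Timp3 lie outside that rule and were named after their values were seen. Python 3.11.15 with pandas 2.3.3 was used, tested on simulated data, and limma 3.58.1 in R 4.3.3 for cyclic loess. Alternatives changed the floor, scaling and choice of probe set.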

Additional observations from a re-analysis of the deposited data

Results flagged for a closer look

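The array of stimulated GFP cells entered no difference above. Of the fixed ovulatory and granulosa genes, 7 had a signal on it at least 2-fold above both compared arrays. Sult1e1 was at 3298 there, Ptgs2 at 6644 and Runx1 at 11634. Areg was at 2505, Ereg at 1364, Pgr at 836 and Nr4a3 at 2357. They were 2.53 to 4.76 times the brighter of the 2 compared signals, and no test was possible with 1 array per group. The other measured genes of the fixed set did not reach the 2-fold mark. The same count over all measured genes was not made, so the number has no background beside it.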

How the results depend on the processing

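No paired analysis was possible because each group had 1 array, and no replicate could be left out. The counts were repeated under 12 alternatives, 11 of which were also run on lists and named genes. Requiring both arrays above the floor gave 517 higher and 742 lower genes. The lowest floor gave 1370 higher and 1328 lower genes, a floor at the 25th percentile gave 1079 higher, and a floor at the 75th percentile gave 341 higher and 382 lower. Scaling to the same median gave 519 higher and 1046 lower genes and moved the median of all genes from -0.03 to -0.13. List medians moved by more than 0.34 in 7 of 393 cases. The lowest floor gave medians of 0.26 for theca and stroma and 0.64 for leukocyte markers, and the 25th percentile gave 0.66 for leukocytes. The 75th percentile gave -0.28 for proteases and 1.36 for feedback genes. Quantile normalisation of the 2 arrays gave -1.47 for preovulatory follicle genes, and the probe set highest on the control array gave 1.04 for cumulus matrix genes. Of 191 named genes past 2-fold, 191 kept their direction in each of the 11 alternatives in which they were measured and 141 stayed past 2-fold in each of these. The floor limits what can be read of dim genes, such as Pgr, Ereg and Nr4a3, whose folds are bounds.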
